A study of Rattus norvegicus with 16 samples.

Results

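The genes described here encode the proteasome of the rat: the subunits of its 20S core and 19S cap, its activators and inhibitor, its assembly chaperones, and the inducible subunits of the immunoproteasome. Members were all genes whose platform annotation symbol begins with Psm, then a letter from a to g, then a digit, and each was read from whichever of its probe sets had the highest mean over the 16 arrays. The rule found 46 genes among 14217 genes with a probe set of a single symbol, and all 46 passed the minimum level for testing. They comprised 5 inducible genes (Psmb8, Psmb9, Psmb10, Psme1 and Psme2), 30 constitutive subunits and 11 others, of which 7 were assembly chaperones and 2, Psmc3ip and Psme3ip1, matched by name without being subunits. Psmb6 and Psme3 were read only by probe sets that also name other genes and were not analysed here, nor were Psma8 and Psmb11.

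The study asked what the initial segment of the epididymis, the stretch that first receives fluid from the testis, does when that fluid is cut off. Adult male Sprague-Dawley rats had the efferent ducts of 1 side ligated, which stops testicular fluid from reaching that epididymis, and the other side of the same animal received a sham operation. Tissue of the most proximal zone was taken 6, 12 or 18 h after ligation, and RNA of the whole tissue was hybridised to Affymetrix rat arrays, 4 for each time and 4 for sham. The labels give sham the time 0, and do not say which animals the sham tissue came from or when it was taken, so p-values measure the spread between these arrays. In whole tissue, more RNA per cell and more cells of a type that holds the RNA cannot be told apart.

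The 20S core is a barrel whose inner beta rings cut proteins, and the 19S cap recognises, unfolds and feeds ubiquitin-tagged proteins into it. In cells exposed to interferon, and constantly in many immune cells, the catalytic subunits encoded by Psmb5, Psmb6 and Psmb7 are replaced in new particles by those of Psmb8 (LMP7), Psmb9 (LMP2) and Psmb10 (MECL-1), which favours peptides that fit class I histocompatibility molecules. Psme1 and Psme2 encode the alpha and beta chains of PA28, a ring-shaped activator that is also raised by interferon gamma.

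Values are log2 after GCRMA, a background correction and normalization for Affymetrix arrays, and levels of different probe sets were not compared. The lowest value of the table was 2.22, correlations between arrays were 0.974 to 0.996, and 41.2 to 41.8% of probe sets of an array lay at or above 5, under which a level was not told from background. Replicates 1 and 2 of every group stood apart from replicates 3 and 4: with group in the limma fit, 36.9% of the 13410 tested probe sets differed between these 2 sets of arrays at an adjusted p under 0.05. In replicates 3 and 4 the labelling control dap read 7.10 to 7.93 for sham and 6 h and 2.22 for 12 and 18 h. The labels name no such sets and do not say whether they differ in array or in sample preparation. As a block below, the kind of array groups replicates 1 and 2 together. It splits replicates 3 and 4 into those of sham and 6 h and those of 12 and 18 h. In replicates 3 and 4 the kind of array and the comparison of 12 or 18 h with sham cannot be told apart, so the main changes below are also given in replicates 1 and 2, where dap read 2.22 throughout.

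The promoters of the 5 inducible genes are shown because Psmb8, Psmb9, Psmb10 and Psme2 moved together, and because they differ in the motif through which interferon regulatory factors act. The sequences are from RefSeq on the rat build GRCr8, written 5' to 3' on the strand of the gene, from 90 bases before the annotated transcription start to 10 after it. Capitals mark matches to the interferon-stimulated response element core, searched on both strands as GAAA, any 2 bases and GAAA again. Psmb8 and Psmb9 lie on chromosome 20 in the order Tap2, Psmb8, Tap1, Psmb9, and Psme1 and Psme2 lie on chromosome 15 with Emc9 between them.
Psmb8, chr20:4657022-4657121, minus strand: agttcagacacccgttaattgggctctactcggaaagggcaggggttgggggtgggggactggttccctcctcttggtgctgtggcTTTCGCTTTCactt
Psmb9, chr20:4668910-4669009, plus strand: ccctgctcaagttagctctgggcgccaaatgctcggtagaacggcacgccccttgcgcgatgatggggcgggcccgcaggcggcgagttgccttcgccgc
Psmb10, chr19:50743283-50743382, minus strand: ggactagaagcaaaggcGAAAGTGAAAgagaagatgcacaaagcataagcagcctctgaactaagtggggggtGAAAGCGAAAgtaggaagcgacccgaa
Psme1, chr15:33038881-33038980, plus strand: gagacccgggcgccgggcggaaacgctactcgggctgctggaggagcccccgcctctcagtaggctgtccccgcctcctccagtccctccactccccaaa
Psme2, chr15:33052742-33052841, minus strand: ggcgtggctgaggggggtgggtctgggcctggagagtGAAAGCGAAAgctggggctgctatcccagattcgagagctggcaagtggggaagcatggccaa

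Psmb10 held 2 matches, beginning at bases -73 and -17 from the start, Psme2 held 1 at base -53, and Psmb8 held 1 on the opposite strand that begins at base -4 and spans the start. Psmb9 and Psme1 had no match in the window of 250 bases before to 50 after the start, which says only that these letters are not there. Over 21842 promoters of that length 3.70% held the motif, against 3 of the 5 inducible genes, 3 of the 26 constitutive subunits with a promoter entry (Psma4, Psmb3 and Psmd7) and 1 of the 11 others (Psmg4). The gamma-activated site, searched as TTCNNNGAA, was in 8.32% of promoters, in Psmb8 alone of the 5 inducible genes and in 3 of 26 constitutive subunits. CCAAT was in 38.0% of promoters, in 2 of 5 inducible genes and in 14 of 26 constitutive subunits. The antioxidant response element core, TGACNNNGC, was in 12.5%, in 0 of 5 and in 5 of 26. A match is a description of the letters, not a measured site.

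Ligation raised 4 of the 5 inducible genes at 12 and 18 h, the 3 catalytic subunits by 1.93 to 2.31-fold and Psme2 by 1.55 and 1.59-fold, and 0 of the 30 constitutive subunits were called at either time. Differences were tested with limma over all tested probe sets with Benjamini-Hochberg adjustment, and a gene is called here when its adjusted p is under 0.05. At 6 h limma called 0 of 46 members, where 0.283% of all tested probe sets were called, and 0 members had an unadjusted p under 0.05. At 12 h 4 of 46 members were called higher and 0 lower, where 3.77% of all tested probe sets were called higher, 4.09% lower and 7.86% in either direction. At 18 h the count was again 4 higher and 0 lower, against 5.20% of probe sets higher, 4.96% lower and 10.2% in either direction. The 4 genes were Psmb8, Psmb9, Psmb10 and Psme2 at both times. At 12 h all arrays lay above all sham arrays for these 4 and below them for Psmd14, a deubiquitinase of the 19S cap. Of all tested probe sets 6.37% lay wholly above sham and 5.41% wholly below. Psmd14 was not called (limma adjusted p = 0.622), and its other probe sets overlapped with sham at 12 h. At 18 h all arrays lay above those of sham for the same 4 and below for 0, where the shares were 7.66% and 6.53%. Since both comparisons use the same 4 sham arrays, they are not independent of each other.

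**Figure D1:**
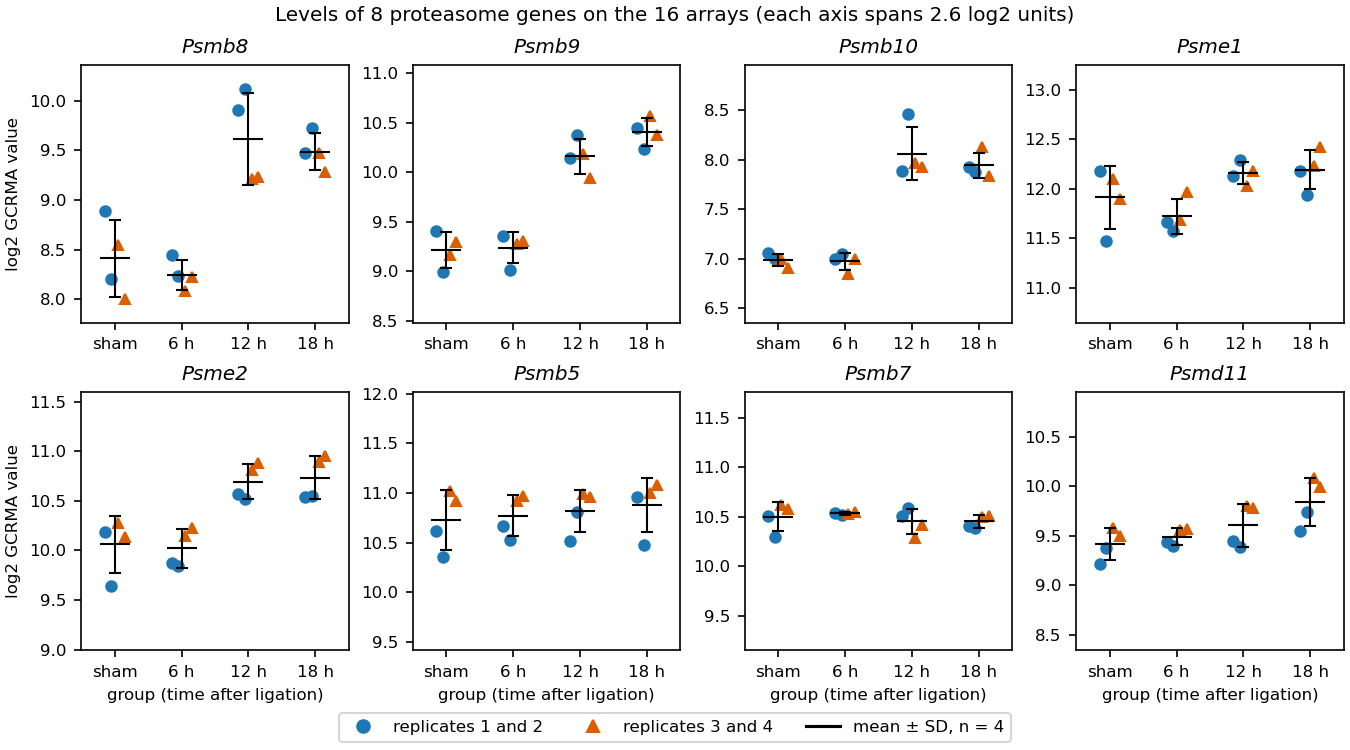
Log2 GCRMA value (vertical axis) of the 5 inducible genes and of Psmb5, Psmb7 and Psmd11 on each of the 16 arrays, by group (horizontal axis), with circles for replicates 1 and 2, triangles for replicates 3 and 4, and a bar for the mean ± SD of 4 arrays. All 12 h and 18 h arrays lie above all sham arrays for Psmb8, Psmb9, Psmb10 and Psme2, and the groups overlap for Psme1, Psmb5, Psmb7 and Psmd11.

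Psmb8, whose product carries the chymotrypsin-like site of the immunoproteasome, read 8.89, 8.20, 8.55 and 8.0 on the sham arrays and 8.44, 8.23, 8.08 and 8.22 at 6 h, in order of replicate. At 12 h it read 9.91, 10.12, 9.21 and 9.23, and at 18 h 9.47, 9.73, 9.47 and 9.28. All arrays of 12 and 18 h were above all of sham and 6 h, and at 12 h replicates 1 and 2 were the highest of the 16. The change from sham was -0.17 ± 0.22 (SE, n = 4 and 4 arrays) at 6 h, 1.21 ± 0.22 at 12 h (2.31-fold, limma adjusted p = 0.0036) and 1.08 ± 0.22 at 18 h (2.11-fold, limma adjusted p = 0.00601). In replicates 1 and 2 it was 1.47 and 1.05 at the later times, and in replicates 3 and 4 it was 0.95 and 1.10.

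Psmb9, which supplies the caspase-like position with a site of other preference, read 9.41, 8.99, 9.16 and 9.30 in sham and 9.36, 9.01, 9.28 and 9.31 at 6 h. It rose to 10.14, 10.38, 10.18 and 9.94 at 12 h and to 10.45, 10.23, 10.57 and 10.38 at 18 h. No array of 12 or 18 h came within the range of sham or 6 h. The change was 0.03 ± 0.12 at 6 h, 0.95 ± 0.12 at 12 h (1.93-fold, limma adjusted p = 0.000304) and 1.19 ± 0.12 at 18 h (2.29-fold, limma adjusted p = 3.29e-05). Replicates 1 and 2 gave 1.06 and 1.14, and replicates 3 and 4 gave 0.83 and 1.24.

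Psmb10, the inducible partner at the trypsin-like position, lay close to 7 on every array before 12 h, with 7.06, 7.0, 7.0 and 6.91 in sham and 7.0, 7.05, 6.85 and 7.0 at 6 h. It read 7.89, 8.46, 7.97 and 7.93 at 12 h and 7.93, 7.88, 8.13 and 7.84 at 18 h. Here too the later arrays were clear of the earlier ones, with replicate 2 of 12 h above the other 3 of its group. The change was -0.02 ± 0.12 at 6 h, 1.07 ± 0.12 at 12 h (2.10-fold, limma adjusted p = 7.66e-05) and 0.95 ± 0.12 at 18 h (1.94-fold, limma adjusted p = 0.000143). It was 1.15 and 0.88 in replicates 1 and 2, and 1.00 and 1.03 in replicates 3 and 4.

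Leaving out any 1 array kept all calls of Psmb8, Psmb9 and Psmb10 against sham. Fitted on sham and 12 h alone, the 12 h call of Psmb8 was lost (limma adjusted p = 0.0568).

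Psme2, the beta chain of PA28, read 10.19, 9.64, 10.28 and 10.14 in sham, 9.87, 9.84, 10.15 and 10.23 at 6 h, 10.57, 10.52, 10.81 and 10.88 at 12 h, and 10.54, 10.55, 10.89 and 10.95 at 18 h. The later arrays were all above sham, and within each group of these times replicates 3 and 4 were above replicates 1 and 2. The change was -0.04 ± 0.16 at 6 h, 0.63 ± 0.16 at 12 h (1.55-fold, limma adjusted p = 0.0251) and 0.67 ± 0.16 at 18 h (1.59-fold, limma adjusted p = 0.0144). The change at 12 h was 0.63 in replicates 1 and 2 and again in replicates 3 and 4, and at 18 h it was 0.63 and 0.71. The 12 h call was lost without sham replicate 2 (limma adjusted p = 0.0695) or 4 (0.0521) and without 12 h replicate 3 (0.0573) or 4 (0.0698). Fitted on the 2 groups compared, both calls were lost (limma adjusted p = 0.088 and 0.0619).

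Psme1, the alpha chain of PA28, was not called at any time. It read 12.18, 11.47, 12.10 and 11.90 in sham, 11.66, 11.57, 11.68 and 11.97 at 6 h, 12.13, 12.29, 12.03 and 12.18 at 12 h, and 12.18, 11.94, 12.23 and 12.42 at 18 h. Sham spanned most of this range, and its replicate 2 was the lowest of the 16 arrays. The change was -0.19 ± 0.15 at 6 h, 0.24 ± 0.15 at 12 h (95% interval -0.08 to 0.57, limma adjusted p = 0.434) and 0.28 ± 0.15 at 18 h (-0.04 to 0.61, limma adjusted p = 0.299). In replicates 1 and 2 it was 0.38 at 12 h and 0.24 at 18 h, and in replicates 3 and 4 it was 0.10 and 0.33. Whether the chains of PA28 differ in their change was not tested.

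Over the 5 inducible genes the median change was -0.04 at 6 h, 0.95 at 12 h and 0.95 at 18 h, against 0.02, 0.03 and 0.03 over the 8344 genes tested. Between 6 and 12 h the same 4 genes were called higher, where 1.82% of all tested probe sets were called higher and 4.28% in either direction. The step was 1.38 for Psmb8 (limma adjusted p = 0.00343), 0.92 for Psmb9 (0.00107), 1.09 for Psmb10 (0.000193) and 0.67 for Psme2 (0.0289). Psme1 changed by 0.43 over this interval, with all 12 h arrays above all 6 h arrays (as were those of 5.02% of probe sets) and a limma adjusted p of 0.136. The call of Psme2 over this interval was lost without replicate 1, 2 or 3 of 6 h or replicate 1, 3 or 4 of 12 h, with limma adjusted p-values of 0.0559 to 0.0882.

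From 12 to 18 h limma called no member, 0% of the table was called, and 1 member, Psma3, had an unadjusted p under 0.05. Psmb9 stood 0.25 higher at 18 h than at 12 h (unadjusted p = 0.0666, limma adjusted p = 0.777), Psmb8 changed by -0.13 and Psmb10 by -0.12. Such differences were not detectable with 4 arrays a group.

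**Figure D2:**
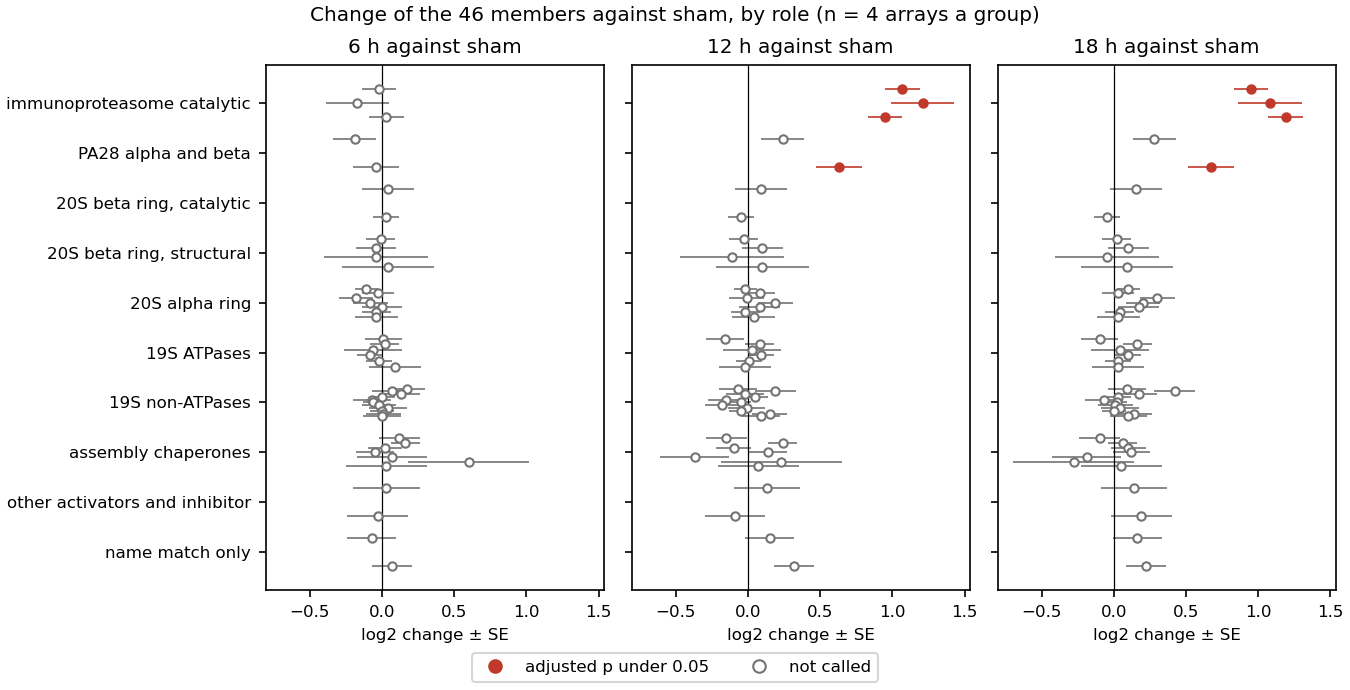
Log2 change from sham (horizontal axis, ± SE, n = 4 arrays a group) of the 46 members at 6, 12 and 18 h, with genes in rows grouped by role and filled red points for an adjusted p under 0.05. The red points are Psmb8, Psmb9, Psmb10 and Psme2 at 12 and 18 h, and the 30 constitutive subunits lie between -0.18 and 0.42 at all times.

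The 30 constitutive subunits had a median change of -0.01 at 6 h, 0.00 at 12 h and 0.04 at 18 h. This median was 0.02, 0.12 and 0.19 in replicates 1 and 2 and -0.05, -0.07 and -0.04 in replicates 3 and 4, and with the kind of array as a block it was -0.01, 0.07 and 0.15. At 6 h they ran from -0.18 (Psma3) to 0.17 (Psmd1), at 12 h from -0.18 (Psmd3) to 0.19 (Psma4) and at 18 h from -0.10 (Psmc1) to 0.42 (Psmd11). Limma called 0 of the 30 in all 5 comparisons. Those with an unadjusted limma p under 0.05 numbered 0, 0 and 2 against sham, 1 from 6 to 12 h and 1 from 12 to 18 h. The share of the table under that threshold is not given here. These counts, and those at that threshold for other members, have nothing to be read against. The 95% intervals of the 30 reached from -0.89 to 0.77 at 12 h and from -0.83 to 0.76 at 18 h, so that 0 of them held a change of 1.

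Of the catalytic subunits that the inducible ones displace, Psmb5 and Psmb7 were measured. Psmb5 read 10.62, 10.35, 11.02 and 10.92 in sham, 10.67, 10.53, 10.92 and 10.97 at 6 h, 10.52, 10.81, 10.99 and 10.96 at 12 h and between 10.47 and 11.08 at 18 h, and changed by 0.04, 0.09 and 0.15 at the 3 times. Psmb7 read 10.51, 10.30, 10.62 and 10.58 in sham, 10.54, 10.52, 10.53 and 10.55 at 6 h, 10.51, 10.59, 10.29 and 10.42 at 12 h and 10.41, 10.39, 10.50 and 10.51 at 18 h, and changed by 0.03, -0.05 and -0.05. Neither was called, and their groups overlapped at every time.

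Within each array the difference between an inducible subunit and its counterpart was compared with sham by a two-sided exact permutation test, 4 arrays against 4, whose smallest p is 0.0286. The 6 tests were adjusted together. Psmb10 minus Psmb7 was higher than sham by 1.12 at 12 h and by 1.01 at 18 h, with all arrays of each time above all of sham (exact p = 0.0286, adjusted 0.0857, for both). Psmb8 minus Psmb5 was higher by 1.11 at 12 h (exact p = 0.0857, adjusted 0.129) and by 0.93 at 18 h (exact p = 0.0571, adjusted 0.114), with overlapping arrays. At 6 h the differences were -0.05 and -0.21 (exact p = 0.629 and 0.571). In replicates 1 and 2 Psmb8 minus Psmb5 gave 1.28 and 0.83 at the later times and Psmb10 minus Psmb7 gave 1.00 and 0.88, and in replicates 3 and 4 they gave 0.94 and 1.04, and 1.25 and 1.13. None passed 0.05 after adjustment, which this design could not reach unless at least 4 of the 6 tests gave the smallest p. With the probe sets of a gene averaged all 4 later tests had an adjusted exact p of 0.0429, but 2 of the 3 probe sets of Psmb5 then averaged read 2.22 on every array, which shrinks its spread by construction.

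Among the alpha ring subunits, which form the gate of the core, Psma3 changed most at 18 h, by 0.30 ± 0.12 (limma adjusted p = 0.145). Among the structural beta subunits it was Psmb2, by 0.10 ± 0.14. The 6 ATPases of the 19S base, which unfold the substrate, had a median change of 0.04 at 18 h, and the largest was Psmc2 with 0.16 ± 0.10.

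Psmd11, a lid subunit of the 19S cap, had the largest change of any constitutive member. It read 9.21, 9.37, 9.58 and 9.5 in sham, 9.44, 9.39, 9.56 and 9.57 at 6 h, 9.45, 9.38, 9.80 and 9.78 at 12 h, and 9.55, 9.74, 10.08 and 9.99 at 18 h. The 18 h arrays of replicates 1 and 2 were above the sham arrays of these numbers, as were those of replicates 3 and 4, but replicates 3 and 4 read higher throughout and the groups overlapped. The change at 18 h was 0.42 ± 0.14 (1.34-fold, limma adjusted p = 0.0638). With the kind of array as a block it was 0.33 and was called (limma adjusted p = 0.0331), and with replicates 1 and 2 against 3 and 4 as a block it was also called (0.00248), as it was without 18 h replicate 1 (0.0329). A second probe set of Psmd11 changed by 0.12 at 18 h (95% interval -0.23 to 0.46, limma adjusted p = 0.755), and the difference between the probe sets was not tested.

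Of the other 11 members 0 were called by limma, and 2 had an unadjusted p under 0.05 at 12 h, Psmd5 and Psme3ip1. The 7 assembly chaperones had a median change of 0.07 at 12 h and 0.05 at 18 h. Psmg3, a chaperone of alpha ring assembly, varied most, with 8.47 on replicate 1 of 6 h and 7.95 on replicate 4 of 12 h against 5.98 to 6.87 on the other 14 arrays. Psmd5, a chaperone of the 19S base named after its values were seen, changed by 0.24 ± 0.10 at 12 h (limma adjusted p = 0.171), and by 0.36 with the kind of array as a block (0.0403). Psme4, the activator PA200, changed by 0.03, 0.13 and 0.14, and Psmf1, the inhibitor PI31, by -0.03, -0.09 and 0.19. Psme3ip1, which matched by name, changed by 0.32 ± 0.14 at 12 h (limma adjusted p = 0.204).

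**Figure D3:**
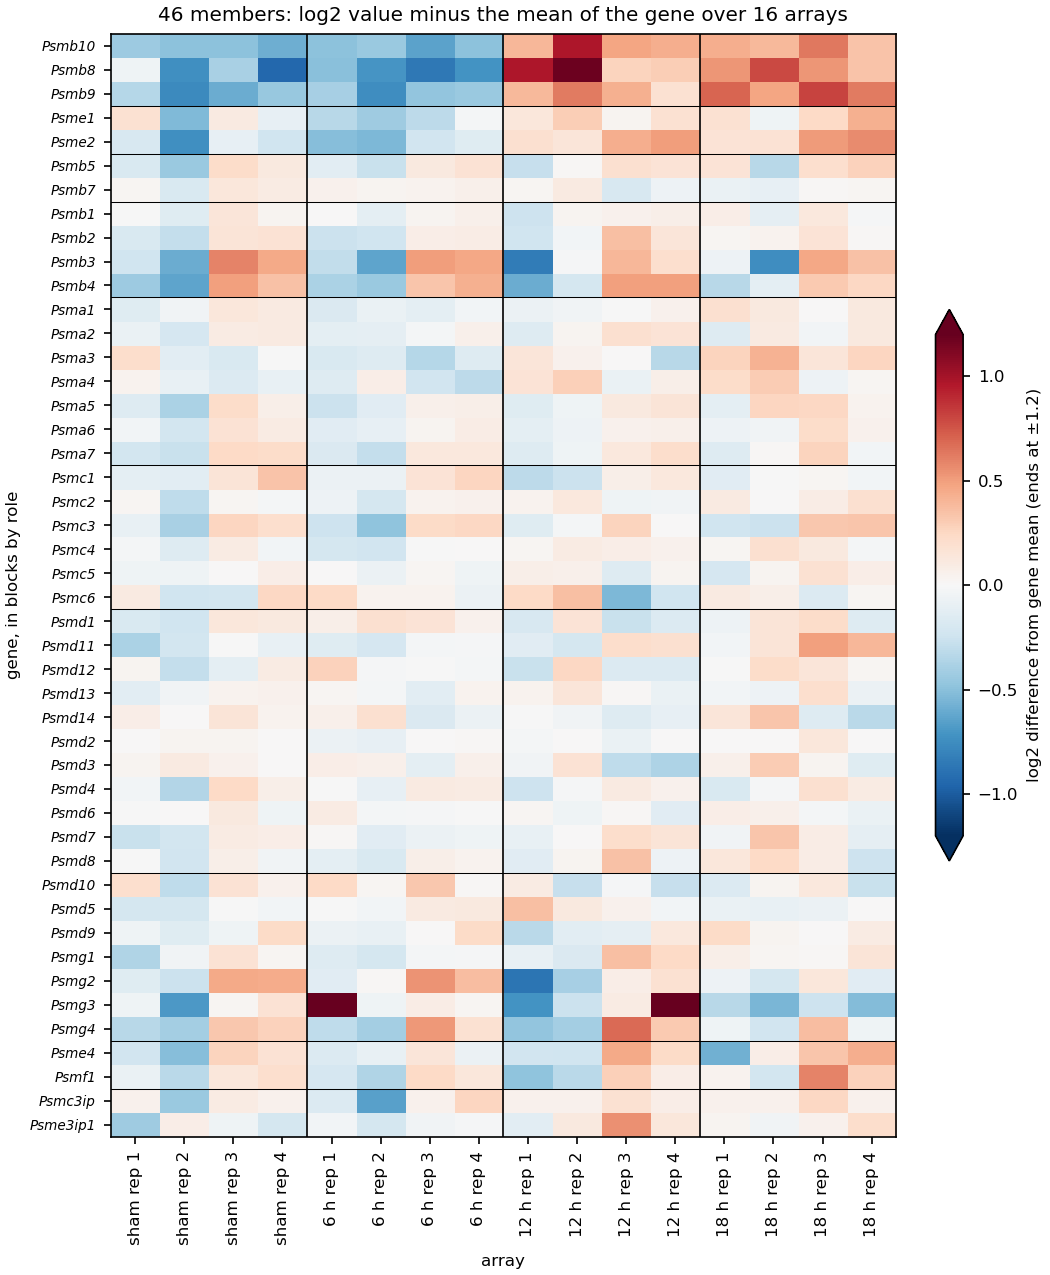
Difference of each array (columns, 4 replicates for sham and each time) from the mean of the gene over 16 arrays, in log2 units (colour, ending at ±1.2), for the 46 members (rows, in blocks by role). Psmb8, Psmb9, Psmb10 and Psme2 turn red at 12 and 18 h, while Psmb3 and Psmb4 change colour between replicates 1 and 2 and replicates 3 and 4 of the groups.

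Many constitutive genes differed between replicates 1 and 2 and replicates 3 and 4. With group in the limma fit, 12 of the 30 were called higher and 2 lower in replicates 3 and 4 than in 1 and 2, 46.7% of them, beside 36.9% of the table (18.3% higher and 18.7% lower). The difference was 0.85 for Psmb3 and 0.79 for Psmb4, both structural beta subunits, and 0.37 for Psmb5. Psmb4 read 11.58 to 12.09 on the arrays of replicates 1 and 2 and 12.46 to 12.70 on those of replicates 3 and 4, with no overlap. Of the inducible genes 2 were called, Psme2 with a difference of 0.33 and Psmb8 with one of -0.37.

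The genes that act with the proteasome were given by 4 lists, with levels in the same log2 units. Of the 15 tested partners and regulators, limma called 0 at 6 h, 1 at 12 h and 1 at 18 h, beside the 0.283%, 7.86% and 10.2% called in the table. Ubqln2, which shuttles tagged proteins to the proteasome, changed by 0.66 at 12 h (limma adjusted p = 0.0298), with sham replicate 1 inside the range of 12 h. Its relative Ubqln1 changed by -0.36 at 18 h (limma adjusted p = 0.0497). Replicates 1 and 2 gave 0.66 for Ubqln2 and -0.28 for Ubqln1, and replicates 3 and 4 gave 0.67 and -0.45. With the kind of array as a block both calls were lost, at 0.65 for Ubqln2 (limma adjusted p = 0.063) and -0.22 for Ubqln1 (0.256). Both calls were lost with the probe sets of the gene averaged (limma adjusted p = 0.095 and 0.159). That of Ubqln2 was also lost without sham replicate 2, 3 or 4 or 12 h replicate 1 or 2 (limma adjusted p = 0.0634 to 0.0955), and that of Ubqln1 without sham replicate 1, 3 or 4 or any 18 h array (0.0598 to 0.142).

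Of 5 tested genes of ubiquitin and its activation 1 was called at 12 h and 18 h, where 7.86% and 10.2% of the table were called. It was Uba6, an enzyme that charges ubiquitin for transfer. It read 8.99 to 9.55 in sham, 9.62 to 9.69 at 6 h, 9.81 to 10.22 at 12 h and 9.60 to 10.09 at 18 h. The arrays of each time were all above sham, and the change was 0.40 at 6 h (limma adjusted p = 0.545), 0.79 at 12 h (0.00244) and 0.48 at 18 h (0.041). At the later times it was 0.82 and 0.33 in replicates 1 and 2 and 0.77 and 0.62 in replicates 3 and 4. With the kind of array as a block the 18 h change was 0.41 and its call was lost (limma adjusted p = 0.162). The 18 h call was lost in each fit without 1 sham array of replicates 2 to 4 or any 18 h array, with limma adjusted p-values of 0.0535 to 0.121.

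Of 8 tested genes of class I peptide supply 1 was called at 12 h and 18 h, again beside 7.86% and 10.2% of the table. It was Tap1, a chain of the pump that carries proteasome products into the endoplasmic reticulum and the gene between Psmb8 and Psmb9. It read 4.91, 4.89, 5.85 and 5.99 in sham, 5.91 to 6.12 at 6 h, 6.00 to 6.62 at 12 h and 7.54, 7.28, 7.22 and 7.30 at 18 h. Its highest values were those of 18 h, clear of every other array. The change was 0.62 at 6 h (limma adjusted p = 0.6), 0.85 ± 0.23 at 12 h (0.0324) and 1.92 ± 0.23 at 18 h (7.97e-05). In replicates 1 and 2 it was 1.16 and 2.51 at the later times, and in replicates 3 and 4 it was 0.55 and 1.34. Sham replicates 1 and 2 read under 5, so the size of the change in these replicates is uncertain. The 12 h call was lost without sham replicate 1 (limma adjusted p = 0.0826) or 2 (0.102) and without 12 h replicate 2 (0.0507), 3 (0.0829) or 4 (0.0716). Tap2, the other chain, changed by 0.64 at 18 h (limma adjusted p = 0.105), and B2m, the light chain of class I molecules, by 0.19 (0.477).

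Of the 13 tested interferon genes and regulators 0 were called at 6 h, 5 higher at 12 h and 5 higher at 18 h, where 3.77% and 5.20% of the table were called higher at the later times. Their median change was 0.10, 0.57 and 0.72. Irf1, an interferon regulatory factor known to activate Psmb8 and Psmb9, read 7.98 to 8.23 in sham, 8.27 to 8.73 at 6 h, 8.90 to 9.19 at 12 h and 9.29 to 9.72 at 18 h, with no overlap between any of these groups. Its change was 0.40 ± 0.12 at 6 h (limma adjusted p = 0.427), 0.98 ± 0.12 at 12 h (0.000228) and 1.42 ± 0.12 at 18 h (7.4e-06). It was 0.90 and 1.53 in replicates 1 and 2, and 1.05 and 1.3 in replicates 3 and 4. Gbp2, an interferon-induced GTPase, changed by 1.12 at 12 h (limma adjusted p = 0.0111) and 1.72 at 18 h (0.000387), with 1.26 and 2.23 in replicates 1 and 2 and 0.97 and 1.21 in replicates 3 and 4. Stat2, which with Irf9 carries the type I interferon signal, changed by 0.98 (limma adjusted p = 0.00364) and 1.07 (0.00146), with 0.82 and 1.32 in replicates 1 and 2 and 1.15 and 0.83 in replicates 3 and 4. Isg15, a ubiquitin-like protein, and Ifnar2, a type I interferon receptor chain, had sham means under 5, so the sizes of their changes are uncertain. These changes were 2.16 and 1.19 at 12 h and 2.53 and 1.04 at 18 h. Ifnar2 lay under 5 on every sham array, and Isg15 on all but replicate 4 (5.05). Both passed the minimum level mainly through the 12 and 18 h arrays, so the filter favoured their calls. The counts above include both, while Irf1, Gbp2 and Stat2 do not share this limit. Isg15 lost its 12 h call without sham replicate 2 (limma adjusted p = 0.0538) or 3 (0.052) or 12 h replicate 1 (0.0574). Ifng and Tnf read 2.22 on all 16 arrays.

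Immune cells carry the inducible subunits at rest, so their markers are given beside these results. Of 6 pan-leukocyte markers limma called 0 at each time against sham, with median changes of -0.23, 0.42 and 0.35. From 6 to 12 h, over which 4 inducible genes were called, all 6 changes were above 0 with a median of 0.58. Over this interval 1 was called, Cd52, by 1.25 (limma adjusted p = 0.0324), where 1.82% of the table was called higher. With the kind of array as a block 1 marker was called at 12 h and 1 at 18 h, with medians of 0.73 and 0.63, and 3 from 6 to 12 h. The share of the table called with this block is not given here, so these counts have nothing to be read against. Within replicates 1 and 2 the median stood at 0.85 for 12 h and 0.39 for 18 h, and within replicates 3 and 4 at -0.04 and 0.07. Their summed level, as log2 of the linear sum, was 13.97 to 14.42 in sham, 13.61 to 14.13 at 6 h, 14.01 to 14.50 at 12 h and 14.29 to 14.55 at 18 h.

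Of 9 tested macrophage markers 0 were called at 12 h and 1 at 18 h, where 7.86% and 10.2% of the table were called. It was Cd14, which changed by 1.92, an uncertain size because its sham mean was under 5. Within replicates 1 and 2 the median change of the 9 markers stood at 0.90 for 12 h and 0.69 for 18 h. Within replicates 3 and 4 it stood at -0.46 and 0.14. The summed level of the 12 matched markers was 10.80 to 11.53 in sham, 10.59 to 11.41 at 6 h, 10.05 to 12.44 at 12 h and 10.84 to 12.33 at 18 h, with Cd163 and Adgre1 under 5 on every array. Of T and NK cell markers, Cd3e, Cd3d, Cd3g, Cd4, Cd8a, Cd8b and Cd5 were under 5 on all arrays, as were Cd79b and Ms4a1 of B cells and Flt3 and Clec9a of dendritic cells. The 4 tested T and NK markers had 0 calls, and their list summed to 7.88 to 8.29 in sham and up to 9.20 at 12 h, on replicate 3. Gzmb, a protease of killer cells, was above every sham array on all arrays of 12 and 18 h. It changed by 1.40 (limma adjusted p = 0.134) and 1.26 (0.16), of uncertain size because its sham mean was under 5. It was called at 12 h with the kind of array as a block (limma adjusted p = 0.0489).

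Of 4 listed neutrophil genes 3 were matched and 0 passed the minimum level for testing, with Csf3r under 5 on every array. The neutrophil gene S100a9 read 8.47 and 10.36 on replicates 1 and 2 of 12 h and no more than 4.61 on any other array. Those 2 arrays also held the highest values of Psmb8 (9.91 and 10.12), and replicate 2 the highest of Psmb10 (8.46). The other called genes did not follow this order. Psmb9 was highest on replicate 3 of 18 h (10.57). Psme2 read 10.57 and 10.52 on those 2 arrays, below replicates 3 and 4 of 12 h (10.81 and 10.88). The part of leukocytes in the changes of the inducible genes was not tested.

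**Figure D4:**
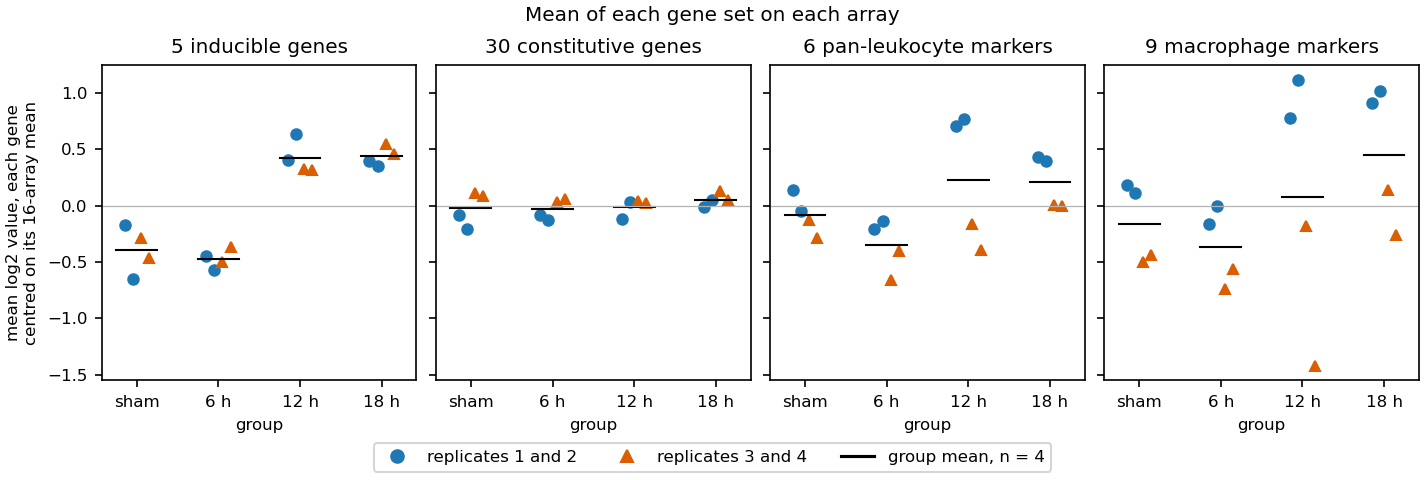
Mean log2 value on each array (vertical axis, each gene centred on its mean over 16 arrays) of the 5 inducible genes, the 30 constitutive subunits, 6 pan-leukocyte and 9 macrophage markers, by group (horizontal axis), with circles for replicates 1 and 2, triangles for replicates 3 and 4 and a line for the group mean. The inducible genes lie between 0.32 and 0.64 at 12 h and 0.35 and 0.55 at 18 h, against -0.65 to -0.17 in sham. At 12 h the leukocyte markers lie at 0.71, 0.77, -0.16 and -0.39 in order of replicate, and the macrophage markers at 0.78, 1.12, -0.18 and -1.42. This order depends on the measure. The linear sums of the leukocyte markers on these arrays were 22619, 23150, 16478 and 22577.

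The tissue carried its own markers. Epcam, which marks epithelium, read 12.00 to 12.68 on all 16 arrays. Of the 7 epithelial markers 2, Cldn3 and Cldn4, were called higher at 12 and 18 h. All 6 matched initial segment genes were measured, and 3 of them, Etv4, Etv5 and Ggt1, were called lower at both later times. Of all tested probe sets, 3.77% and 5.20% were called higher at these times, and 4.09% and 4.96% lower. Of 5 tested genes of MHC class II, 0 were called at any time. Of the 6 fibroblast markers 0 were called against sham. The 3 tested spermatid transcripts were called lower at 12 and 18 h and 1 of them at 6 h. The 6 matched genes summed, as log2 of the linear sum, to 8.48 to 11.28 in sham. Their sum was 5.49 to 6.92 at 12 h and 5.5 to 6.03 at 18 h. High values in sham alone suffice to pass the minimum level, so the filter favoured lower calls and this count is not support. At 6 h 0.283% of all tested probe sets were called in either direction.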

How the data were processed

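The authors deposited 1 log2 value per probe set and array, made with GCRMA per the submitters' processing notes. Its version and genome build are not given in the sources used here. Of 31099 probe sets, 57 controls were left out. The platform annotation (2016) gave 20826 of the rest 1 symbol and 436 several, and the latter name no gene here. Tests were run on the 13410 probe sets that reached 5 in 4 or more of the 16 arrays. Limma 3.58.1 in R 4.3.3 fitted 4 group means over all arrays, with Benjamini-Hochberg adjustment within each comparison. The scripts were first tested on simulated data.

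Members, lists and tests were chosen with earlier results of these data known. Genes are named as follows: the inducible genes and their counterparts, Psme4 and Psmf1, members called, the largest 18 h change of each role, and up to 4 called genes of each pathway list. Stat2, Tap2, B2m, Psmd14, Psmd5 and single marker genes are named outside this rule, after their values were seen. A planned pair, Psmb9 with Psmb6, was not run because Psmb6 has no probe set of its own. Alternatives varied the minimum level, scaling, prior, arrays in the fit, blocks, array weights, probe sets and threshold. The number of arrays limits the precision.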

Additional observations from a re-analysis of the deposited data

Results flagged for a closer look

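Among 92 groups of 4 arrays checked for a single distant array (23 genes), 8 had one, and chance flags about 1 in 20. Psmb10 read 8.46 on replicate 2 of 12 h against 7.89 to 7.97 on the other 3. Psma3 read 7.64 on replicate 3 of 6 h against 7.80 to 7.83. Psmg3 read 8.47 on replicate 1 of 6 h against 6.65 to 6.79. Psme3ip1 read 7.19 on replicate 2 of 6 h against 7.36 to 7.39. Psmc2 read 11.01 on sham replicate 2 against 11.29 to 11.34. Of the pathway genes, Isg15 read 5.90 on replicate 3 of 6 h against 3.78 to 4.06, Ifnar2 read 4.25 on sham replicate 2 against 4.82 to 4.88, and Uba6 read 10.09 on replicate 4 of 18 h against 9.60 to 9.65.

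The change against sham at 12 h exceeded that at 6 h by a tested difference in 7 named genes. It did so by 1.38 for Psmb8, 0.92 for Psmb9, 1.09 for Psmb10 and 0.67 for Psme2. Among the interferon genes it did so by 0.57 for Irf1 (limma adjusted p = 0.0196), 1.93 for Isg15 (0.0492) and 1.10 for Ifnar2 (0.0199). The 6 h means of Isg15 and Ifnar2 were under 5, so the sizes of their differences are uncertain. Both passed the minimum level mainly through the 12 and 18 h arrays, so the filter favoured their calls and they are not support. With the kind of array as a block that of Irf1 was 0.51 and not called (limma adjusted p = 0.0506). The call of Isg15 was lost without any one of 6 h replicates 1, 2 and 4 or 12 h replicates 1 to 3 (limma adjusted p = 0.0876 to 0.138), that of Irf1 without 6 h replicate 3 or 4 or 12 h replicate 1 (0.0538 to 0.0695), and that of Ifnar2 without 6 h replicate 1, 2 or 3 (0.0542 to 0.0625).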

How the results depend on the processing

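Members called at 6 h and from 12 to 18 h stayed at 0 under all alternatives run. Fitted on the 2 groups compared, 2 members were called at 12 h. Replicates 1 and 2 alone gave 1 at 18 h, and replicates 3 and 4 alone gave 1 from 6 to 12 h, each from 2 arrays a group. The share of the table called in these fits, and in the fits without 1 array that follow, is not given here. A fall in these counts can follow a fall over the whole table. Without each array in turn the counts ran 0 to 0 at 6 h, 3 to 4 at 12 h, 4 to 5 at 18 h, 3 to 4 from 6 to 12 h and 0 to 0 from 12 to 18 h. The within-array differences ran from 0.91 to 1.31 (12 h) and 0.72 to 1.13 (18 h) for Psmb8 minus Psmb5, from 1.04 to 1.2 and 0.95 to 1.08 for Psmb10 minus Psmb7, and at 6 h from -0.41 to -0.01 and -0.10 to 0.02. With probe sets averaged these differences were 1.18 (12 h) and 1.03 (18 h) for Psmb8 minus Psmb5 and 1.12 and 1.01 for Psmb10 minus Psmb7, each with an adjusted exact p of 0.0429. The average of Psmb5 holds 2 probe sets that read 2.22 on every array, and the adjusted p of Psmb10 minus Psmb7 moved only through the joint adjustment, so these add no support. Of 2390 results for named genes under alternatives, 2129 kept direction and side of the threshold, 119 fell short of it and 11 came past it. Another 131 changed direction but were called in neither fit, and 0 changed direction with a call in either fit. The cause was not tested.

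Same-numbered arrays of different groups correlated from 0.01 to 0.56 in their deviations (24 pairs). Arrays of other numbers within the same set, replicates 1 and 2 or 3 and 4, correlated from -0.01 to 0.63 (24 pairs). These ranges overlap, but 11 of 16 arrays correlated best with one of their own number. Whether the numbers pair the arrays was not settled. With the replicate block 4 members were called at 12 h and 5 at 18 h, Psmd11 added (limma adjusted p = 0.00507), and the block moved the calls in the whole table from 1054 to 1709 and from 1362 to 2165. Table calls at 12 h were 653 with no minimum level, 477 on the 2 groups and 2426 with array weights. With only 4 arrays a group, and replicates 1 and 2 apart from 3 and 4, small changes of constitutive subunits could not be resolved.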
